A study of Mus musculus with 6 samples.

Results

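The genes described here are 10 mitotic kinases, cyclins and proliferation markers: Mki67, Top2a, Ccna2, Ccnb1, Ccnb2, Cdk1, Aurka, Aurkb, Plk1 and Bub1. They were taken by gene symbol from the deposited expression table, which holds 26776 genes, and all 10 were among the 18081 genes with enough counts to be tested. RNA was sequenced from bone marrow cells that the labels call long-term haematopoietic stem cells (LT-HSCs), cells at the top of the blood-forming hierarchy, in 6 libraries. Of these, 3 came from cells sorted as high for enhanced green fluorescent protein (eGFPhi) and 3 from cells sorted as low (eGFPlo). All cells were from Trim47+/eGFP mice, whose genotype name places an eGFP reporter on 1 allele of Trim47, so that no library is from an animal without the reporter. The strain, age, sex and number of the mice, the sort gates and the animal behind each replicate are not stated in the labels. The p-values therefore measure only the spread between these libraries, which may be technical. Totals ran from 11221070 to 26058391 counts in eGFPhi libraries and from 11706873 to 18151852 counts in eGFPlo libraries.

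A dividing cell copies its DNA in S phase and separates the copies in mitosis. Cyclin A2 (Ccna2) and the B-type cyclins (Ccnb1 and Ccnb2) bind and activate the kinase Cdk1, which drives entry into mitosis. The aurora kinases Aurka and Aurkb and the polo-like kinase Plk1 then build the spindle and guide chromosome segregation and cytokinesis, Bub1 acts in the checkpoint that delays anaphase until chromosomes are attached, Top2a untangles DNA, and Ki-67 (Mki67) coats mitotic chromosomes. Transcripts of these genes accumulate in late S phase, G2 and mitosis and are low in quiescent cells, and most LT-HSCs of adult marrow are quiescent.

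The promoters of many genes of this class carry CCAAT boxes, which bind the factor NF-Y, and a cell cycle genes homology region (CHR), read by the DREAM and MuvB complexes. A RefSeq window of 250 bases before to 50 bases after the annotated start (build GRCm38.p6) was found for 8 of the 10 genes, all but Ccna2 and Aurkb. The stretches of 200 bases upstream of the start are printed for the 4 genes whose windows hold a pair of CCAAT boxes on the same strand with first bases 31 to 34 bases apart. Each is read 5′ to 3′ on the strand of the gene, and capitals mark CCAAT or its complement ATTGG, and the CHR core TTTGAA. The stretches lie at chr9:70421555-70421754 for Ccnb2, chr13:100786487-100786686 for Ccnb1, chr10:69352913-69353112 for Cdk1 and chr2:172370571-172370770 for Aurka, all on the minus strand.
Ccnb2: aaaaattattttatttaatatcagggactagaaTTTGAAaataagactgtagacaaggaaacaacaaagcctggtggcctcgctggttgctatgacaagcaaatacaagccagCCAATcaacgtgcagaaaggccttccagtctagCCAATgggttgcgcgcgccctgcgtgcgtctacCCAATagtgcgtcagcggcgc
Ccnb1: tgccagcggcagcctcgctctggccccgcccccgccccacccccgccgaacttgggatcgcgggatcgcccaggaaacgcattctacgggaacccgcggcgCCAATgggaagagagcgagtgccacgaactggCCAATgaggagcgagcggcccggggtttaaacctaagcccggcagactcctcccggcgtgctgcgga
Cdk1: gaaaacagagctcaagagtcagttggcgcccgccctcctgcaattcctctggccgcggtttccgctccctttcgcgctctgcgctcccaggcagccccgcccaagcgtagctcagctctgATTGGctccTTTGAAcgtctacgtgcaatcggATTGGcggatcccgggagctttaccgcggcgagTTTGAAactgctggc
Aurka: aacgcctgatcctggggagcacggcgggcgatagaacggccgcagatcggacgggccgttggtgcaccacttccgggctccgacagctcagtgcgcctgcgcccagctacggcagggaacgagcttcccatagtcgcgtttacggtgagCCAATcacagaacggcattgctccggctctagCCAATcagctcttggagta
In Ccnb2 the 3 capitalised CCAAT boxes start 33 bases apart, and in Ccnb1, Cdk1 and Aurka the pair starts 32 bases apart. This spacing was chosen after the positions had been seen. The printed stretches end before the start, and so leave out a CHR core of Ccnb2 and one of Aurka. Those lie after the start, at bases 5 to 10 in Ccnb2 and at bases 33 to 38 in Aurka.

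Searched on both strands, CCAAT was present in 8 of the 8 windows, against 37.4% of the 32851 windows in the table, and 7 of the 8 held at least 2. TTTGAA was present in 6 of the 8 windows, against 17.9% of all windows. The related CHR form TTCGAA, which reads the same on both strands, was present in 2 of the 8, Top2a and Bub1, against 1.56% of all windows. Other CHR forms were not searched, so a window without these 2 forms may still hold another. The closely spaced CCAAT pair was present in 4 of the 8 windows, against 0.895% of all windows. As its spacing was chosen after these positions had been seen, that contrast is a description only. In the windows of 81 other mitotic genes from the lists described in later paragraphs, the shares were also above those of all windows, at 50.6% for CCAAT, 38.3% for TTTGAA, 8.64% for TTCGAA and 7.41% for the pair. A match describes letters in the window and is not a measured binding site. Of the 4 genes with the pair, Ccnb2 and Ccnb1 had the largest falls in eGFPhi cells given in the following paragraphs. Cdk1 had one of the smallest, and Aurka lay between. Whether the pair relates to the size of the fall was not tested.

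**Figure D1:**
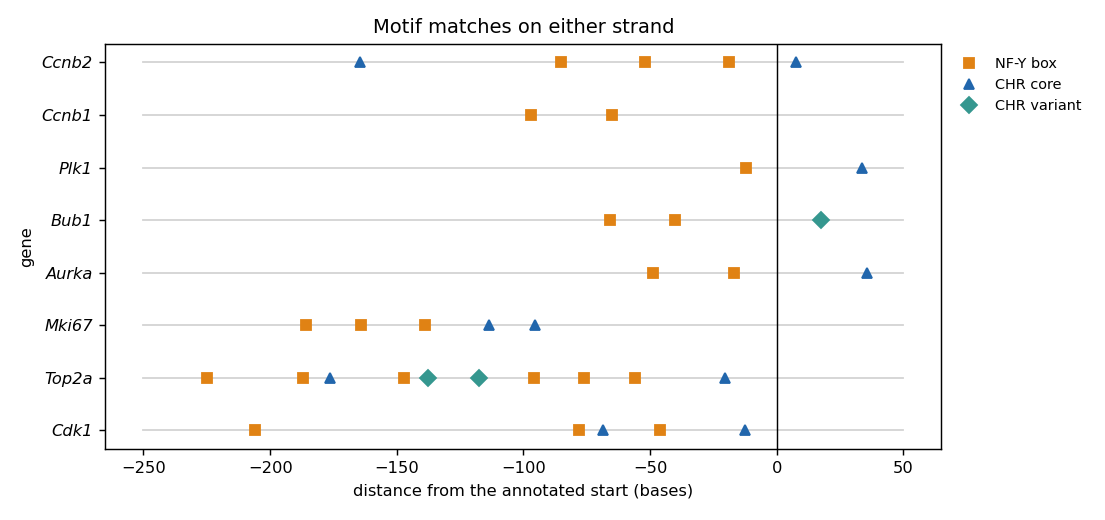
Positions of motif matches in the promoter windows of 8 genes, with distance from the annotated start in bases on the x axis and genes on the y axis, ordered from the largest fall in eGFPhi cells at the top. Squares mark the NF-Y box, triangles the CHR core and diamonds the CHR variant; every gene has an NF-Y box, and 7 of the 8 have at least 2.

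All 10 genes were lower in eGFPhi than in eGFPlo cells (edgeR quasi-likelihood test, Benjamini-Hochberg adjusted over 18081 genes, threshold 0.05). Of all genes tested, 31.7% were lower by the same test, so passing it in this direction was common. Another 32.3% were higher, which makes 64% in either direction. The 3 eGFPhi libraries lay below the 3 eGFPlo libraries for each of the 10, as they did for 34.6% of all genes tested (69.8% in either direction). At least 2-fold falls were seen for 8 of the 10 genes, all but Cdk1 and Aurkb, against 9.57% of all genes tested. Summed over the 10 genes, the level ran from 1121 to 1134 CPM in eGFPhi libraries, against 2708 to 2755 CPM in eGFPlo libraries, and the groups lay far apart. The median log2 fold change, eGFPhi over eGFPlo, was -1.28 over the 10 genes and 0.00 over all genes tested. In bulk RNA of this kind, fewer cycling cells and less RNA of these genes per cell cannot be told apart. The labels do not say whether both groups came from the same mice. A difference between mice and one between the sorted cells therefore cannot be told apart either.

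The proliferation markers were the most abundant of the 10. Mki67 (ENSMUSG00000031004, chromosome 7, 135689784 to 135716361, minus strand) had 752, 749 and 743 CPM (counts scaled to the library total) in eGFPhi libraries, against 1801, 1785 and 1825 CPM in eGFPlo libraries. Every eGFPhi value lay below every eGFPlo value, and the libraries of a group were almost the same. Mki67 averaged 748 ± 4.48 CPM in eGFPhi cells and 1803 ± 20.5 CPM in eGFPlo cells (SD, n = 3 each). That is 2.41-fold lower in eGFPhi cells, with a log2 fold change of -1.27 (SE 0.01, edgeR adjusted p = 3.62e-09). Top2a (ENSMUSG00000020914, chromosome 11, 98992943 to 99024189, minus strand), the type II topoisomerase of dividing cells, had 261, 268 and 259 CPM in eGFPhi libraries, against 612, 629 and 626 CPM in eGFPlo libraries. Its groups were equally well separated, and its fall of 2.37-fold (log2 -1.24, SE 0.02, edgeR adjusted p = 3.30e-08) was close to that of Mki67. Top2a stood at 35.1 ± 0.609% of the Mki67 CPM in eGFPhi libraries and at 34.5 ± 0.644% in eGFPlo libraries (SD, n = 3 each), and these ratios overlapped between groups.

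**Figure D2:**
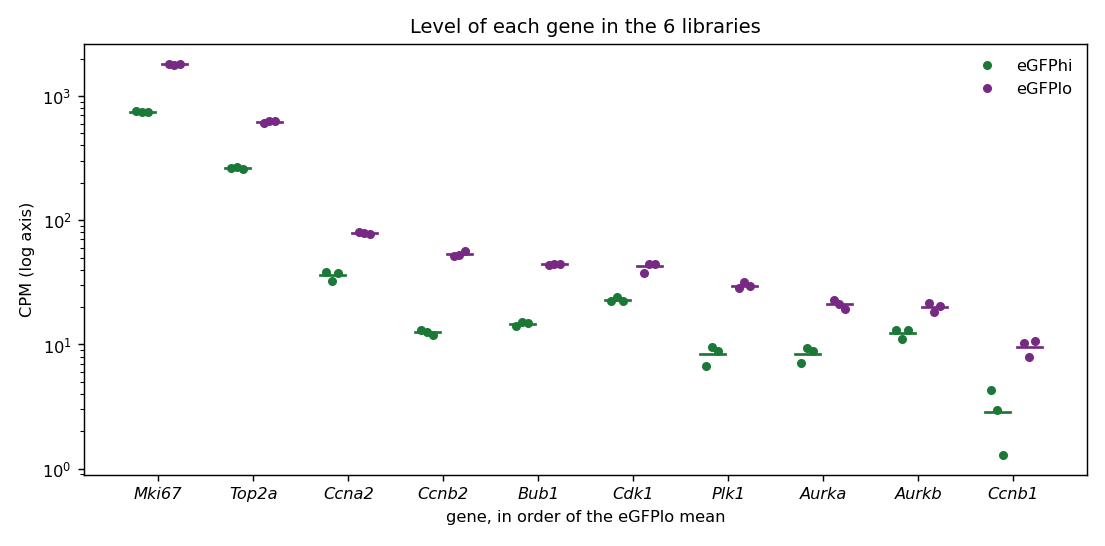
CPM of each of the 10 genes in each library on a log axis, with eGFPhi libraries left of eGFPlo libraries; points are libraries and bars are group means. For every gene the 3 eGFPhi points lie below the 3 eGFPlo points, with the widest spread for Ccnb1 in eGFPhi.

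The mitotic cyclins fell by unequal amounts. Ccnb2 (ENSMUSG00000032218, chromosome 9, 70407692 to 70421547, minus strand), a B-type cyclin, had 12.99, 12.6 and 12.02 CPM in eGFPhi libraries, against 51.9, 52.8 and 56.9 CPM in eGFPlo libraries. No library of one group came near the other, and at 4.31-fold lower in eGFPhi cells (log2 -2.11, SE 0.06, edgeR adjusted p = 2.55e-07) Ccnb2 fell the most of the 10 genes. Of all genes tested, 3.999% had as low or a lower fold change. Ccna2 (ENSMUSG00000027715, chromosome 3, 36564865 to 36572150, minus strand), the cyclin that acts in S phase and at mitotic entry, had 38.6, 32.2 and 38.0 CPM in eGFPhi libraries, against 79.8, 79.7 and 77.7 CPM in eGFPlo libraries. It was 2.19-fold lower in eGFPhi cells (log2 -1.13, SE 0.07, edgeR adjusted p = 8.98e-06), with eGFPhi replicate 2 the lowest library. Ccnb2 stood at 0.348 ± 0.0383 of the Ccna2 CPM in eGFPhi libraries and at 0.681 ± 0.0442 in eGFPlo libraries (SD, n = 3 each). These ratios did not overlap, so Ccnb2 was lower in eGFPhi cells relative to Ccna2 as well. Ccna2 shares 510 exonic bases with Exosc9 on the opposite strand, and Exosc9 had a log2 fold change of -0.64. Whether reads were counted by strand is not stated.

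Ccnb1 (ENSMUSG00000041431, chromosome 13, 100778650 to 100786570, minus strand), the other B-type cyclin, was measured with the least precision. It rested on 48, 77 and 25 counts in eGFPhi libraries, against 119, 113 and 191 counts in eGFPlo libraries. It had 4.27, 2.96 and 1.28 CPM in eGFPhi libraries, against 10.2, 7.90 and 10.6 CPM in eGFPlo libraries. The groups did not overlap, but the eGFPhi libraries differed among themselves, with a coefficient of variation of 52.8% where counting error alone gives 15.7%. Ccnb1 was 3.51-fold lower in eGFPhi cells (log2 -1.81, SE 0.35, edgeR adjusted p = 0.00250), and without eGFPhi replicate 3 its log2 fold change was -1.45. The genome holds near-identical pseudogene copies of this gene. The transcript of Ccnb1-ps on chromosome 7 is 99.2% identical to it over 1287 bases, that of Gm12856 on chromosome 4 is 98.1% identical over 1294, that of Gm8416 on chromosome 14 is 97.3% identical over 1290, and that of Gm4870 on chromosome 5 is 94.4% identical over 1272. Reads can be divided among such copies by the mapping, and how the authors assigned them is not stated, so the count of Ccnb1 alone is uncertain. The 4 copies together held 403 counts in eGFPhi and 1041 in eGFPlo libraries, and Ccnb1 held 150 and 423. Ccnb1 took 37.5, 29.7 and 15.1% of the summed counts of the 5 loci in eGFPhi libraries, against 32.1, 24.9 and 29.9% in eGFPlo libraries. Summed over the 5 loci, the level was 11.4, 9.95 and 8.53 CPM in eGFPhi libraries, against 31.8, 31.7 and 35.4 CPM in eGFPlo libraries. The sum varied far less between eGFPhi libraries than Ccnb1 alone. It was lower in eGFPhi cells with a log2 fold change of -1.74 (SE 0.11, edgeR adjusted p = 8.10e-06), an alternative added after the data were seen. Ccnb1-ps alone added to Ccnb1 gave -1.64 (SE 0.14, edgeR adjusted p = 4.79e-05).

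Cdk1 (ENSMUSG00000019942, chromosome 10, 69335146 to 69352938, minus strand), the kinase these cyclins activate, fell less than Ccnb2. It had 22.5, 24.2 and 22.3 CPM in eGFPhi libraries, against 37.7, 44.8 and 44.9 CPM in eGFPlo libraries. The groups did not overlap, and eGFPlo replicate 1 was the lowest of its group. Cdk1 was 1.84-fold lower in eGFPhi cells (log2 -0.88, SE 0.08, edgeR adjusted p = 6.14e-05). Relative to Cdk1, Ccnb2 CPM stood at 0.545 ± 0.0292 in eGFPhi libraries and 1.27 ± 0.0999 in eGFPlo libraries (SD, n = 3 each), with no overlap. Ccna2 stood at 1.72, 1.33 and 1.70 of the Cdk1 CPM in eGFPhi libraries, against 2.12, 1.78 and 1.73 in eGFPlo libraries. The nearest values of the groups were almost the same, so the groups were separated here only by a small margin.

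Among the mitotic kinases Plk1 fell the most and Aurkb the least. Plk1 (ENSMUSG00000030867, chromosome 7, 122159439 to 122169873, plus strand), which acts at centrosomes, kinetochores and the cleavage site, had 6.76, 9.61 and 8.94 CPM in eGFPhi libraries, against 28.4, 31.6 and 29.3 CPM in eGFPlo libraries. It was 3.47-fold lower in eGFPhi cells (log2 -1.80, SE 0.12, edgeR adjusted p = 1.40e-05) and its groups were far apart. Aurka (ENSMUSG00000027496, chromosome 2, 172356190 to 172370535, minus strand), the centrosomal and spindle aurora kinase, had 7.12, 9.34 and 8.84 CPM in eGFPhi libraries, against 22.7, 21.04 and 19.4 CPM in eGFPlo libraries. The groups did not overlap, and it was 2.46-fold lower in eGFPhi cells (log2 -1.30, SE 0.12, edgeR adjusted p = 5.67e-05). Aurkb (ENSMUSG00000020897, chromosome 11, 69045647 to 69051664, plus strand), the kinase of the chromosomal passenger complex, had 13.2, 11.03 and 13.05 CPM in eGFPhi libraries, against 21.7, 18.1 and 20.5 CPM in eGFPlo libraries. Its groups were the closest of the kinases but did not overlap, and it was 1.63-fold lower in eGFPhi cells (log2 -0.70, SE 0.11, edgeR adjusted p = 8.24e-04). Tested against a minimum fold of 1.5, Aurkb no longer passed (adjusted p = 0.174). Of all genes tested, 14.8% had as low or a lower fold change than Aurkb.

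Ratios to Aurkb, the kinase with the smallest fall, restate these unequal falls within each library. They come from the same CPM values and are no separate result. Aurka stood at 0.688 ± 0.153 of the Aurkb CPM in eGFPhi libraries and at 1.05 ± 0.108 in eGFPlo libraries (SD, n = 3 each). Plk1 stood at 0.690 ± 0.179 of the Aurkb CPM in eGFPhi libraries and at 1.495 ± 0.224 in eGFPlo libraries. Neither ratio overlapped between groups, and neither was tested. Plk1 has a pseudogene copy, Plk-ps1, whose transcript is 93.5% identical over 1813 bases and which held 13 counts in eGFPhi and 21 in eGFPlo libraries.

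Bub1 (ENSMUSG00000027379, chromosome 2, 127801122 to 127831865, minus strand), the checkpoint kinase, had 14.1, 15.1 and 14.9 CPM in eGFPhi libraries, against 43.7, 44.2 and 44.4 CPM in eGFPlo libraries. Its libraries varied within each group by no more than counting error gives (coefficients of variation of 3.73% in eGFPhi and 0.805% in eGFPlo), and the groups lay far apart. It was 2.99-fold lower in eGFPhi cells (log2 -1.58, SE 0.06, edgeR adjusted p = 4.97e-07). Relative to its paralogue Bub1b, the BubR1 pseudokinase of the same checkpoint, Bub1 stood at 0.291 ± 0.0125 in eGFPhi libraries and 0.396 ± 0.0141 in eGFPlo libraries (SD, n = 3 each), with no overlap.

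**Figure D3:**
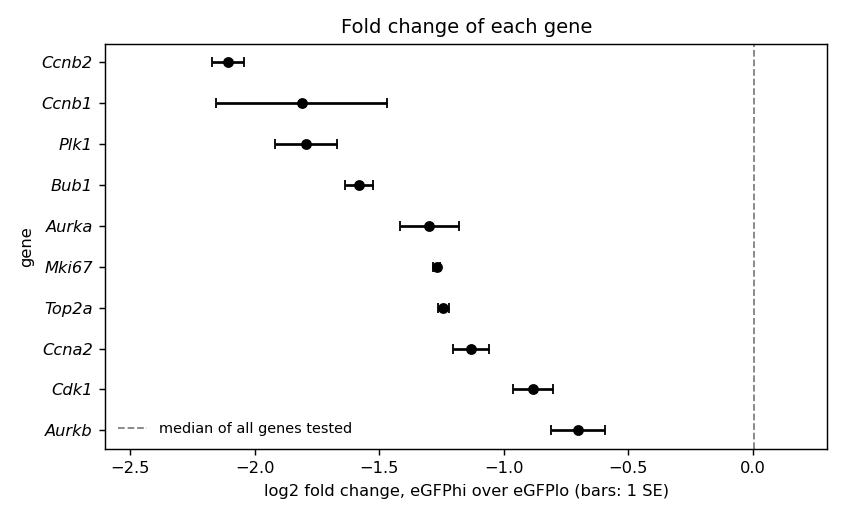
Log2 fold change, eGFPhi over eGFPlo, of each of the 10 genes, with bars of 1 standard error and a dashed line at the median of all genes tested. All 10 lie below 0, between -2.11 for Ccnb2 and -0.70 for Aurkb, and Ccnb1 has the widest bar.

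From the largest fall to the smallest, the order was Ccnb2, Ccnb1, Plk1, Bub1, Aurka, Mki67, Top2a, Ccna2, Cdk1 and Aurkb. For 7 of the 9 neighbouring pairs in this order the within-library ratio of the pair overlapped between groups, so those neighbours were not separated beyond the spread of the libraries. The exceptions were Plk1 with Bub1 and Ccna2 with Cdk1, both by a small margin. For Plk1 over Bub1 the highest eGFPhi value was 0.638 and the lowest eGFPlo value 0.651. For Ccna2 over Cdk1 these were 1.72 and 1.73. The share of all gene pairs whose ratio did not overlap was not computed. Set against Mki67 within each library, 4 of the other 9 genes overlapped between groups, namely Top2a, Ccna2, Ccnb1 and Aurka. Among these, Ccna2 stood at 4.85 ± 0.477% in eGFPhi and 4.39 ± 0.113% in eGFPlo libraries, and Aurka at 1.13 ± 0.159% in eGFPhi and 1.17 ± 0.0984% in eGFPlo libraries. Ccnb2, Plk1 and Bub1 were lower relative to Mki67 in every eGFPhi library than in any eGFPlo library. Ccnb2 stood at 1.67 ± 0.0552% of the Mki67 CPM in eGFPhi libraries, against 2.99 ± 0.119% in eGFPlo libraries (SD, n = 3 each). Plk1 stood at 1.13 ± 0.202% in eGFPhi and 1.65 ± 0.103% in eGFPlo libraries, and Bub1 at 1.96 ± 0.0819% in eGFPhi and 2.45 ± 0.0294% in eGFPlo libraries. Cdk1 and Aurkb were higher relative to Mki67 in every eGFPhi library. Cdk1 stood at 3.08 ± 0.132% in eGFPhi and 2.35 ± 0.227% in eGFPlo libraries. Aurkb stood at 1.66 ± 0.162% of the Mki67 CPM in eGFPhi libraries, against 1.11 ± 0.0952% in eGFPlo libraries. Mki67 itself fell, with a log2 fold change of -1.27 against a median of 0.00 over all genes tested. A gene that did not change would therefore also stand higher relative to Mki67 in eGFPhi libraries. The share of all genes tested whose ratio to Mki67 did not overlap was not computed. These ratios are given as a description and were not tested.

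**Figure D4:**
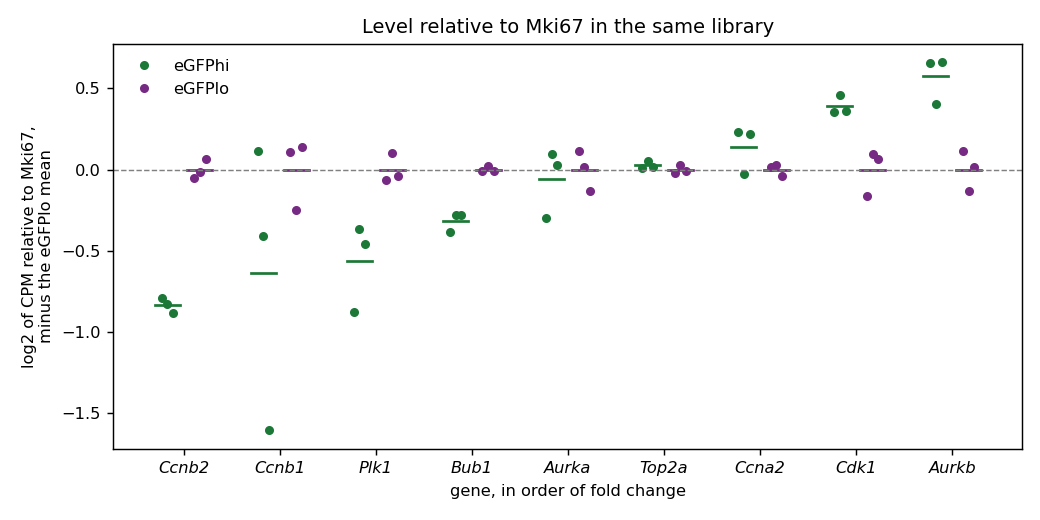
Log2 of the CPM of 9 genes relative to the Mki67 CPM in the same library, with the mean of the eGFPlo libraries set to 0 for each gene and eGFPhi left of eGFPlo; points are libraries and bars are group means. Ccnb2, Plk1 and Bub1 are lower in eGFPhi, Cdk1 and Aurkb are higher, and Top2a, Ccna2, Ccnb1 and Aurka overlap.

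Levels were compared between genes as CPM per kilobase of merged exons. In eGFPhi cells Mki67 had 74.4 ± 0.445 and Top2a 29.2 ± 0.549 CPM per kilobase, followed by Ccna2 with 8.88 ± 0.872, Ccnb2 with 8.18 ± 0.318 and Cdk1 with 4.66 ± 0.204 (SD, n = 3). Aurkb with 4.21, Plk1 with 3.84, Bub1 with 3.37 and Aurka with 3.33 CPM per kilobase overlapped each with the next, as did Ccna2 with Ccnb2, and Ccnb1 was lowest with 0.673. In eGFPlo cells Mki67 had 179 ± 2.04, Top2a 69.0 ± 1.01, Ccnb2 35.2 ± 1.73, Ccna2 19.4 ± 0.293 and Plk1 13.5 ± 0.737 CPM per kilobase. Bub1 with 10.1, Cdk1 with 8.60, Aurka with 8.32, Aurkb with 6.82 and Ccnb1 with 2.27 followed, and only Cdk1 and Aurka overlapped. Ccnb2 therefore stood above Ccna2 in eGFPlo cells, whereas the 2 genes overlapped in eGFPhi cells. The order depends on the exon model: by the authors' FPKM, which divides by the sum of distinct exons, Ccnb2 had 8.18 and Ccna2 5.78 in eGFPhi cells, and Ccnb2 had 35.1 and Ccna2 12.6 in eGFPlo cells.

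The 5 genes outside the 10 whose profile over the 6 libraries was nearest to the mean profile of the 10 were H3c2, H1f3, Slc16a1, Gm25745 and Cdk6, among 10027 genes with a mean of at least 10 CPM. Likeness was the root mean square difference of centred log2 CPM, which was 0.0315 for the histone gene H3c2 and 0.0408 for Cdk6. Cdk6, the kinase that cyclin D activates in G1, had 440, 431 and 431 CPM in eGFPhi libraries, against 1059, 1074 and 1070 CPM in eGFPlo libraries. As Cdk6 was chosen for this likeness, its fall in eGFPhi cells by about as much as Mki67 (log2 -1.30) is no separate result.

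The other genes of mitosis were read from lists compiled from general knowledge, together 95 genes. Of these, 69 were lower in eGFPhi cells, 11 were higher and 15 did not pass (edgeR). Among all genes tested, 31.7% were lower and 32.3% higher, the shares against which each list is read. The median log2 fold change of the 95 genes was -0.58. Of 12 genes that control the mitotic kinase complex at entry, 9 were lower in eGFPhi cells and none higher, with a median of -0.74. Those called lower ran from Cks2, the small subunit that binds Cdk1 (log2 -1.49), to Ccnf (log2 -0.67). Wee1, the kinase that inhibits Cdk1, was among the 3 that did not pass, with 56.2, 56.2 and 54.6 CPM in eGFPhi libraries, against 60.7, 54.1 and 58.6 CPM in eGFPlo libraries. Of 14 partners and relatives of the aurora and polo kinases, 12 were lower and 2 higher, with a median of -1.03. The cytokinesis factor Ect2 had the largest fall (log2 -1.90) and the centrosomal scaffold Cep192 the smallest (log2 -0.24).

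The 2 higher genes of that list were the polo-like kinases Plk2 and Plk3, which respond to stress and are not mitotic markers. Plk2 had 88.9, 87.5 and 88.9 CPM in eGFPhi libraries, against 46.7, 47.8 and 47.0 CPM in eGFPlo libraries, the opposite direction to Plk1. Its log2 fold change was 0.91 (SE 0.04, edgeR adjusted p = 7.87e-07), and that of Plk3 was 0.24 (edgeR adjusted p = 0.00593).

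Of 16 checkpoint and kinetochore genes, 13 were lower in eGFPhi cells, from Cenpf (log2 -1.38) to the checkpoint protein Mad2l1 (log2 -0.36), and the median was -0.63. Zwint was higher (log2 0.19, edgeR adjusted p = 0.00126), but not with an assumed coefficient of variation of 0.2 or a minimum fold of 1.5. All 10 genes of condensin and chromosome structure were lower, from Ncapg (log2 -1.02) to Top2b (log2 -0.19), the type II topoisomerase that non-dividing cells also express. A further list holds the anaphase-promoting complex, the ubiquitin ligase that destroys cyclin B and securin, with its partners and securin itself. Of its 21 genes, 13 were lower and 7 higher, with a median of -0.20, and 32.3% of all genes tested were higher. No gene of this list was called higher with an assumed coefficient of variation of 0.2 or with a minimum fold of 1.5. The E2 enzyme Ube2c fell the most (log2 -1.81), Anapc5 the least of those called lower (log2 -0.08), and the subunits Anapc11 (log2 0.57), Anapc10 (0.52), Anapc4 (0.40) and Anapc1 (0.21) were higher in eGFPhi cells. Securin (Pttg1), which holds separase inactive until anaphase, was higher too, with 8.81, 6.88 and 8.07 CPM in eGFPhi libraries, against 5.91, 5.24 and 5.26 CPM in eGFPlo libraries (log2 0.52, SE 0.13, edgeR adjusted p = 0.00940).

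Of 22 genes that control transcription of mitotic genes, 12 were lower in eGFPhi cells, 1 was higher and 9 did not pass, with a median of -0.30. E2f2 fell the most (log2 -2.08) and E2f4 the least of those called lower (log2 -0.11). The higher gene was Rbl2, which encodes the p130 pocket protein of the DREAM complex in quiescent cells (log2 0.58, edgeR adjusted p = 3.73e-05).

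**Figure D5:**
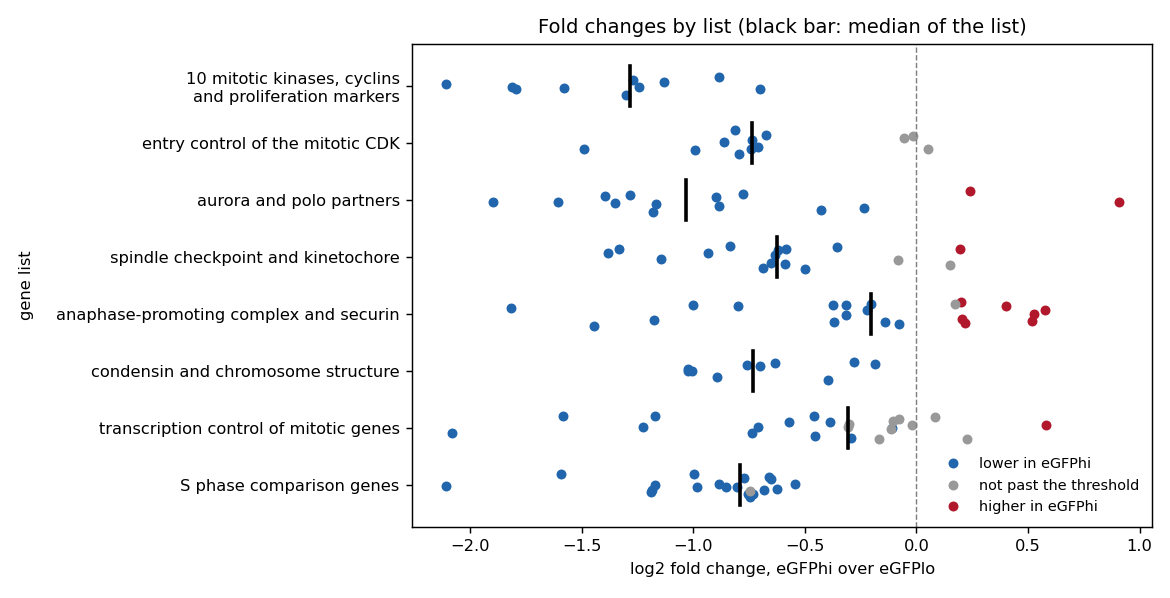
Log2 fold change, eGFPhi over eGFPlo, of each gene in the 10 genes and the other cell cycle lists; points are genes, coloured by call, and black bars are list medians. The median is -1.28 for the 10 genes, -1.03 for aurora and polo partners and -0.20 for the anaphase-promoting complex, where calls lie on both sides of 0.

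Genes of S phase gave a second point of the cycle for comparison. Of 20 of them, 19 were lower in eGFPhi cells and 1 did not pass, from Rrm2, a subunit of ribonucleotide reductase (log2 -2.11), to the replication clamp Pcna (log2 -0.54), and the median was -0.79. The summed CPM of the 10 genes was 0.643, 0.642 and 0.621 of the summed CPM of the S phase genes in eGFPhi libraries, against 0.846, 0.848 and 0.893 in eGFPlo libraries. The ratio was lower in every eGFPhi library than in any eGFPlo library. It averaged 0.636 ± 0.0125 in eGFPhi cells and 0.862 ± 0.0264 in eGFPlo cells (SD, n = 3 each). Mki67 and Top2a made up 89.5% of the summed CPM of the 10 genes in eGFPhi libraries and 89.0% in eGFPlo libraries, so the ratio mainly reports those 2 genes. The 95 other mitotic genes had a median log2 fold change of -0.58, a smaller fall than the -0.79 of the S phase genes. The lower ratio therefore describes these 10 genes and not mitotic genes in general.

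The calls of the 10 genes were repeated under other settings, and the share of all genes tested that were lower in eGFPhi cells is given for each. It was 31.8% with RLE factors, 30.2% with upper-quartile factors, 24.8% with no filter, 34% with a stricter filter, 26.8% with DESeq2, 32.1% with limma-voom and 31.1% with limma on FPKM. It was 29.9% with a replicate block. It was 30.1, 29.2 and 29.4% without eGFPhi replicates 1, 2 and 3, and 29.4, 29.3 and 28.8% without eGFPlo replicates 1, 2 and 3. It was lower with an assumed coefficient of variation of 0.2, at 16.5%, and with a minimum fold of 1.5, at 11%. All 10 genes passed under each of these settings except the last, where 9 did.

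Trim47 carries the reporter by which the cells were sorted, and its level is not independent of the sort. It had 21.6, 26.2 and 23.3 CPM in eGFPhi libraries, against 7.28, 8.18 and 8.92 CPM in eGFPlo libraries. It was 2.91-fold higher in eGFPhi cells (log2 1.54, SE 0.11, edgeR adjusted p = 1.69e-05), the direction the labels give.

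Markers of cell types also differed between the groups, with directions that varied by list. Of all genes tested, 31.7% were lower in eGFPhi cells and 32.3% were higher. LT-HSC markers were higher in eGFPhi cells for 13 of 14 genes, and their summed level ran from 3159 to 3380 CPM in eGFPhi libraries, against 1405 to 1418 CPM in eGFPlo libraries. Kit had the highest level of them, at 779, 781 and 790 CPM in eGFPhi libraries and 541, 533 and 544 CPM in eGFPlo libraries. All 9 markers of granulocyte-monocyte progenitors were lower in eGFPhi cells, summing to 415 to 426 CPM in eGFPhi libraries and 5585 to 5637 CPM in eGFPlo libraries, and Mpo led them. All 10 B lineage markers were lower, summing to 15.5 to 17.8 CPM in eGFPhi libraries and 544 to 559 CPM in eGFPlo libraries, with Ebf1 the highest and Igll1 at 0 in eGFPhi libraries. All 4 markers of multipotent progenitors, led by Cd34, were lower, summing to 271 to 287 CPM in eGFPhi libraries and 610 to 624 CPM in eGFPlo libraries. Of 10 erythroid markers 8 were lower, summing to 108 to 116 CPM in eGFPhi and 205 to 209 CPM in eGFPlo libraries, with Tfrc the highest. Of 10 T and NK markers, 6 had enough counts to be tested, of which 4 were lower, 1 was higher and 1 did not pass, summing to 7.83 to 9.95 CPM in eGFPhi and 22.7 to 26.5 CPM in eGFPlo libraries. Cd4 was the highest, and Cd3e, Cd3d, Cd3g, Trbc2 and Cd8a were at 0 in eGFPhi libraries. These genes were low in eGFPlo libraries too, with summed counts of 11, 5, 53, 107 and 13 in that order. Only Trbc2 among them had enough counts to be tested. Of 10 markers of mature neutrophils and monocytes, 4 were lower and 2 higher, summing to 188 to 193 CPM in eGFPhi and 244 to 248 CPM in eGFPlo libraries, with S100a9 the highest. Genes that mark committed granulocyte-monocyte and B lineage cells were therefore detected in both groups of libraries labelled LT-HSC, at higher levels in eGFPlo libraries. Their part in the lower levels of the 10 genes was not tested.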

How the data were processed

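Stranded, poly-A selected RNA libraries were made from 3 eGFPhi and 3 eGFPlo samples, per the labels' protocols. The submitters' processing notes name edgeR, StringTie, HISAT2 and CASAVA 1.8, with no role given, and the builds GRCm38 and hg38. Neither the tool that counted reads nor its settings for strand and for shared reads are stated there. Per the file headers, the deposited table has a raw count for each gene in each library and FPKM values that the authors computed from them. Of 26776 genes, 26710 have an identifier in GENCODE M21 and 26508 have the same coordinates there, so positions are on GRCm38.

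The count model was edgeR 4.0.16 (limma 3.58.1, R 4.3.3). The filterByExpr function (minimum count 10, minimum total 15) kept 18081 genes, which hold 99.7 to 99.9% of a library's counts. Libraries were scaled by TMM. Groups were compared by the quasi-likelihood F test, and p-values were adjusted by Benjamini-Hochberg over all genes kept, at a threshold of 0.05. A fold change is eGFPhi over eGFPlo on the log2 scale. The fit was first tested on simulated data, in which 200 genes had known changes. The libraries of a group differed beyond counting noise (chi-square per gene from 4.09 to 6.34), so none was counted as a repeat of another.

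Replicate numbers are shared between groups but no source says that they mark an animal or day. Residual profiles of same-numbered libraries did not correlate (r = -0.0133, 0.000555 and -0.0108), and the groups were compared unpaired. As alternatives, DESeq2 1.42.0, limma-voom, limma on log2(FPKM + 1), a replicate block, an assumed coefficient of variation of 0.2, a minimum fold of 1.5, RLE or upper-quartile factors, another filter (none, or 5 CPM in 3 libraries) and leaving out each library were tried. Sums of Ccnb1 with its copies were added after the data were seen.

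The 10 genes, the lists and the rules were chosen with earlier results of these data known. The text names all 10 genes and Trim47. From each cell cycle list it names the genes called lower with the largest and smallest change and those called higher (at most 4, by smallest p). It also names the 5 genes of nearest profile and, from each marker list, the gene of highest mean CPM and those at 0 in a group. Wee1, Bub1b, Exosc9 and Pttg1 were named after their values were seen.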

Additional observations from a re-analysis of the deposited data

How the results depend on the processing

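All 10 genes were lower in eGFPhi cells under every alternative, and all 10 passed under each except the minimum fold of 1.5, where 9 did. The median log2 fold change of the 10 genes was -1.11 with limma on log2(FPKM + 1), -1.27 with limma-voom, with no filter and with the stricter filter, and -1.26 with upper-quartile factors, against -1.28. Leaving out each library gave -1.32 to -1.25. An assumed coefficient of variation of 0.2 called 6619 genes (2982 lower and 3637 higher in eGFPhi cells) and a minimum fold of 1.5 called 4512 (1984 lower and 2528 higher), against 11571. With the assumed variation, 1 gene was called higher among aurora and polo partners and 0 among checkpoint genes, 5 lower and 0 higher in the anaphase-promoting complex, and 6 lower among transcription control genes. With the minimum fold, 1 gene was called higher among aurora and polo partners, 5 lower and 0 higher among checkpoint genes, 5 lower and 0 higher in the anaphase-promoting complex, 6 lower in condensin, and 5 lower and 0 higher among transcription control genes. Leaving out each library gave 1 to 2 transcription control genes called higher. The cause was not tested, beyond the stricter thresholds these alternatives set by construction.

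With the replicate block, 10965 genes were called (5414 lower and 5551 higher in eGFPhi cells), all 10 genes passed and their median was -1.29. Since the numbers are not known to pair the libraries, this says nothing about a shared animal.

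Ccnb1 was the least precise of the 10 genes, with a spread between eGFPhi libraries beyond counting error whose cause was not tested. Its log2 fold change ran from -2.12 to -0.70 over the alternatives, the smallest fall being on the log2(FPKM + 1) scale, which understates changes of low genes.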

Other observations

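Ccnb1ip1, which encodes a ubiquitin ligase named for binding cyclin B1, lies outside the lists and was chosen after its values were seen. It had 7562, 17774 and 13390 counts in eGFPhi libraries, against 0, 1 and 1 in eGFPlo libraries. The ratio of the summed counts, adjusted for TMM-scaled library totals, was 15032, with a 95% exact counting interval of 4161 to 124132, which covers counting error only. Ccnb1 itself was lower in eGFPhi cells. The labels do not say whether the eGFPhi and eGFPlo cells came from the same mice or from mice of one genetic background, so a difference between mice and one between the sorted cells cannot be told apart for this gene.

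The S phase gene Fen1 was the most uneven of its list between libraries of a group. It had 64.0, 18.1 and 58.3 CPM in eGFPhi libraries, against 94.5, 102 and 35.2 CPM in eGFPlo libraries, and the groups overlapped. Gm10143 on the opposite strand, which overlaps it, held 8, 28 and 23 counts in eGFPhi libraries, against 2, 1 and 4 in eGFPlo libraries. Tmem258 overlaps it on the opposite strand as well. The cause of the spread was not tested.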
